A study of Mus musculus with 2 samples.

Results

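Csf1, Il34 and Csf1r are the genes of M-CSF, IL-34 and the receptor they share, and they were described here in bone marrow-derived macrophages of calpain-6-deficient mice (Capn6-Ko) and of calpain-6 wild-type mice (Capn6-Wt). The 3 genes were taken from the 20656 genes that could be named on the array, as all non-control probes whose RefSeq transcript belongs to one of them. They hold 7 probes, 3 for Csf1, 1 for Il34 and 3 for Csf1r, and all 7 were well above background on both arrays. The 3 genes were selected on measured values, since their signals on these arrays and the differences between them were known when they were picked. Every value below is therefore a description, and none was tested.

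Each group was 1 Agilent array, hybridised with Cy3-labelled total RNA of pooled cells. The design text speaks of 4 mice without saying whether that is the number per group. All mice were male, and both cultures were grown from femoral marrow in 10% serum with 50 ng/mL of M-CSF, which drives marrow progenitors to macrophages, and 10 ng/mL of TNF-α, an inflammatory cytokine. The day of culture is 3 by the description of the samples and 4 by their source name. They do not describe the calpain-6 allele. Because there are no replicates, no p-value is given. Unless said otherwise, ± marks 1 SD of spot error, the scatter that reading the same RNA from another spot would bring.

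M-CSF and IL-34 are secreted dimers with no recognisable resemblance in sequence that bind the same receptor tyrosine kinase, encoded by Csf1r. The receptor is the defining growth factor receptor of monocytes, macrophages and osteoclast precursors, and its signal keeps these cells alive and dividing. M-CSF is made mainly by stromal cells such as fibroblasts, osteoblasts and endothelial cells, also by activated macrophages, and IL-34 is best known from keratinocytes and neurons. In culture the added M-CSF is recombinant protein, so an array reads only the mRNA that the cells themselves make.

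The sequence before the start of Csf1 is shown because TNF-α, in both media, acts through NF-kB, and Csf1 is known as a gene that TNF-α can induce. It comes from RefSeq (GRCm38.p6, chr3:107760470-107760719, minus strand, the 250 bases upstream of the annotated start, written along the gene), and the capitals mark the only match to the NF-kB consensus on either strand.
Csf1: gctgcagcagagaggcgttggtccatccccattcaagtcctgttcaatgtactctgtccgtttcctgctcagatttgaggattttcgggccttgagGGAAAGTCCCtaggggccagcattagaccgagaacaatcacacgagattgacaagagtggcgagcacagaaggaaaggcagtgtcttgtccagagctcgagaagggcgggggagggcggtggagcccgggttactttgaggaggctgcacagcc
The match lies from 154 to 145 bases before the start, and 7.25% of the 32851 RefSeq windows of the same length hold at least 1 match. The window also holds 2 copies of the GC box GGGCGG, which 32.7% of windows hold. Searched on both strands, it has no match to the AP-1 motif TGANTCA, to TATAAA or to the PU.1 motif GAGGAAGT, which are found in 6.75%, 12.4% and 2.44% of windows. A match is a run of letters and does not show binding.

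The arrays were alike in quality. Well above background were 52.8% of the 59305 non-control spots on the Capn6-Ko array and 51.7% on the Capn6-Wt array, the median local background was 29 on the Capn6-Ko array and 27 on the Capn6-Wt array, and no spot was saturated. The single Capn6 probe gave a signal of 8.65 on the Capn6-Ko array and 3.93 on the Capn6-Wt array, neither of them well above background, so the targeted gene does not check the labels. A gene counts as measured when at least 1 of its probes was well above background on both arrays, which 12872 genes were. All 14 macrophage markers with a named probe were measured, but so were 19 of 20 stromal markers and all 9 platelet markers, so being measured does not single out the labelled cell type. The median log2 difference over them was -0.0055, with an SD of 0.18, or 0.10 for the brighter genes, above the median level, and 0.23 for the dimmer ones. Counts below use a fixed size, at least 25% higher or at least 20% lower in Capn6-Ko, which are the same step of 0.32 on the log2 scale. Where genes are counted as higher or lower by any size, the share to set beside them is 47.8% of all measured genes higher.

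Csf1 mRNA was lower in the Capn6-Ko pool on every probe, by 1.39-fold over the 3 probes (log2 difference -0.48 ± 0.043). Il34 mRNA was also lower, by 1.28-fold (-0.36 ± 0.16), from a dim probe with 1 spot. Csf1r mRNA was 1.15-fold higher in Capn6-Ko (0.20 ± 0.046), again on every probe. Both ligand transcripts were thus lower in the pool in which the receptor transcript was higher by a smaller amount.

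**Figure D1:**
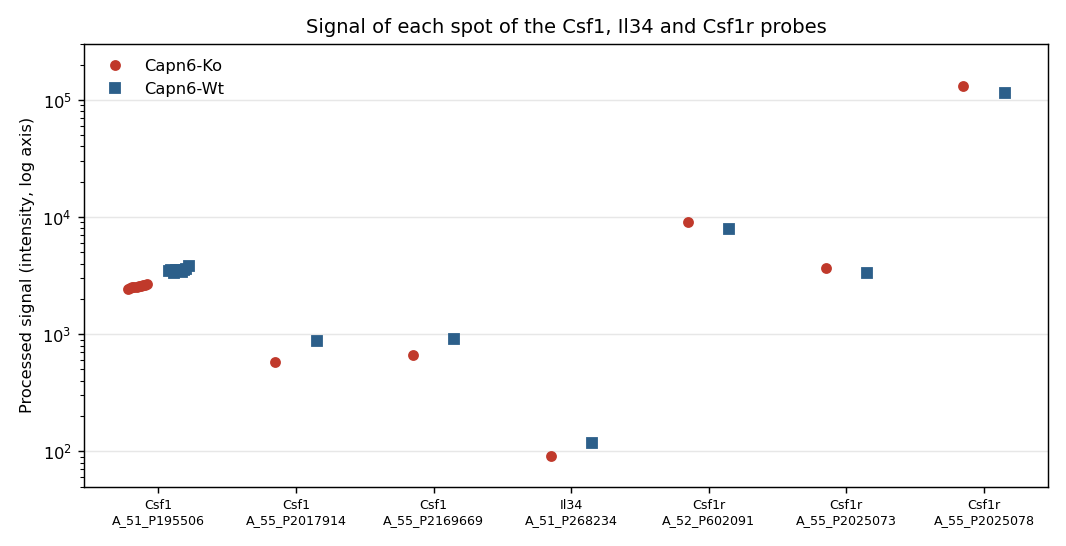
Processed signal (intensity before scaling between the arrays, log axis) of every spot of the 7 probes, with Capn6-Ko as red circles left of Capn6-Wt as blue squares. The 10 spots of Csf1 probe A_51_P195506 lie between 2431 and 2687 on the Capn6-Ko array, below all 10 spots of the Capn6-Wt array. Heights of different probes are not comparable.

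Csf1 encodes M-CSF, the ligand that was also added to the medium as protein. Probe A_51_P195506, designed to the transcript NM_007778, is printed 10 times on each array and carries the most precise value of the 3 genes. Its signals on the Capn6-Ko array were 2431, 2500, 2507, 2510, 2540, 2578, 2592, 2603, 2614 and 2687, with a mean of 2556 ± 73.2 (SD over 10 spots). On the Capn6-Wt array they ran from 3317 to 3782 with a median of 3508 and a mean of 3517 ± 132 (SD over 10 spots). The spots of the arrays do not overlap, and at all 10 positions the Capn6-Ko spot was lower. The log2 differences by position, after scaling each array to its 75th percentile, ran from -0.50 to -0.36 with a median of -0.44. Spots of an array share the same RNA and labelling, so they show how well the arrays were read and not how cultures vary. Of 263 measured probes with replicated spots, 6.08% likewise had all their Capn6-Ko spots below all their Capn6-Wt spots, and 3.42% were lower by at least as much as this Csf1 probe.

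The other Csf1 probes, both designed to the transcript NM_001113530, have 1 spot per array. Probe A_55_P2017914 had a signal of 584 on the Capn6-Ko array and 866 on the Capn6-Wt array, a log2 difference of -0.55 ± 0.090. Probe A_55_P2169669 had 663 on the Capn6-Ko array and 914 on the Capn6-Wt array, a difference of -0.44 ± 0.089. All 3 probes were therefore more than 20% lower in Capn6-Ko, and the widest gap between them, 0.11 ± 0.094, was little more than its spot error. Among 465 genes with exactly 3 measured probes, 0.86% had all 3 at least 20% lower.

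Over all measured genes 5.53% were at least 20% lower in Capn6-Ko and 2.64% at least 25% higher, a split of 712 against 340 genes that became 535 lower and 558 higher when the arrays were scaled to their medians. Among the 6436 brighter genes, to which Csf1 belongs, 0.886% were at least 20% lower and 0.684% at least 25% higher, and 25 genes had a lower value than Csf1. The scanner software assigns each of these signals an error of about 10.0%, which is wider than the spot-to-spot spread of 2.86% on the Capn6-Ko array and 3.74% on the Capn6-Wt array. By that wider error the Csf1 differences in signal, before scaling between the arrays, were 2.21, 2.70 and 2.22 times the error of a difference between single spots.

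**Figure D2:**
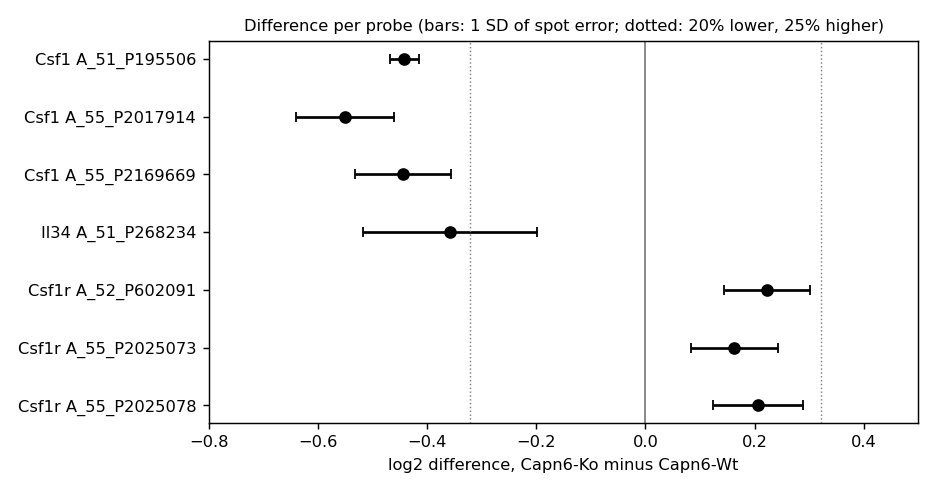
Log2 difference of each probe, Capn6-Ko minus Capn6-Wt, with bars of 1 SD of spot error and dotted lines at 20% lower and 25% higher. The Csf1 probes lie between -0.55 and -0.44, the Il34 probe at -0.36 and the Csf1r probes between 0.16 and 0.22.

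Il34 encodes IL-34, which binds the same receptor. Its probe, A_51_P268234, designed to NM_029646, had a signal of 91.2 on the Capn6-Ko array and 118 on the Capn6-Wt array, which is 3.14 times the local background on the Capn6-Ko array and 4.38 times on the Capn6-Wt array. The log2 difference of -0.36 ± 0.16 is larger than its spot error. The difference in signal, before scaling between the arrays, was 1.74 times the error that the software assigns. Il34 is one of the dimmer genes, of which 10.2% were at least 20% lower and 8.75% had a lower value than Il34. The value passed that size narrowly, and it came to -0.29 with the arrays scaled to their medians, -0.27 without background correction and -0.25 after normexp, all short of 20% lower. The difference between Csf1 and Il34 was -0.12 ± 0.16, within its spot error.

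Transcripts of the other proteins reported to bind IL-34 had differences close to 0 or were not measured. Ptprz1, a receptor phosphatase of glia, was not well above background on either array, with signals of 3.01 and 6.32 for its probes on the Capn6-Ko array and 4.51 and 8.29 on the Capn6-Wt array. Sdc1, a heparan sulphate proteoglycan, had a signal of 1406 on the Capn6-Ko array and 1415 on the Capn6-Wt array, a difference of 0.0092 ± 0.080. Trem2, a lipid-sensing receptor of macrophages, was at 0.12 ± 0.082.

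Csf1r encodes the receptor, a tyrosine kinase also known as CD115. All 3 probes are designed to NM_001037859 and have 1 spot per array. Probe A_55_P2025078 had a signal of 131530 on the Capn6-Ko array and 115464 on the Capn6-Wt array (0.21 ± 0.082). Probe A_52_P602091 had 9084 on the Capn6-Ko array and 7879 on the Capn6-Wt array (0.22 ± 0.079), and probe A_55_P2025073 had 3701 on the Capn6-Ko array and 3348 on the Capn6-Wt array (0.16 ± 0.080). Each was higher in Capn6-Ko by at least 2 times its spot error, and their gap of 0.061 ± 0.11 was within it.

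No Csf1r probe reached 25% higher. By the error that the software assigns, the 3 differences in signal, before scaling between the arrays, were 0.92, 1.0 and 0.71 times that of a difference between single spots. All 3 probes were higher together in 17.4% of the genes with 3 measured probes, and all 3 were at least as high as the lowest Csf1r probe in 1.29%. Of the 6436 brighter genes, 191 had a higher value than Csf1r. Csf1 and Csf1r differed by -0.68 ± 0.063 in their log2 differences, and Il34 and Csf1r by -0.56 ± 0.17.

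**Figure D3:**
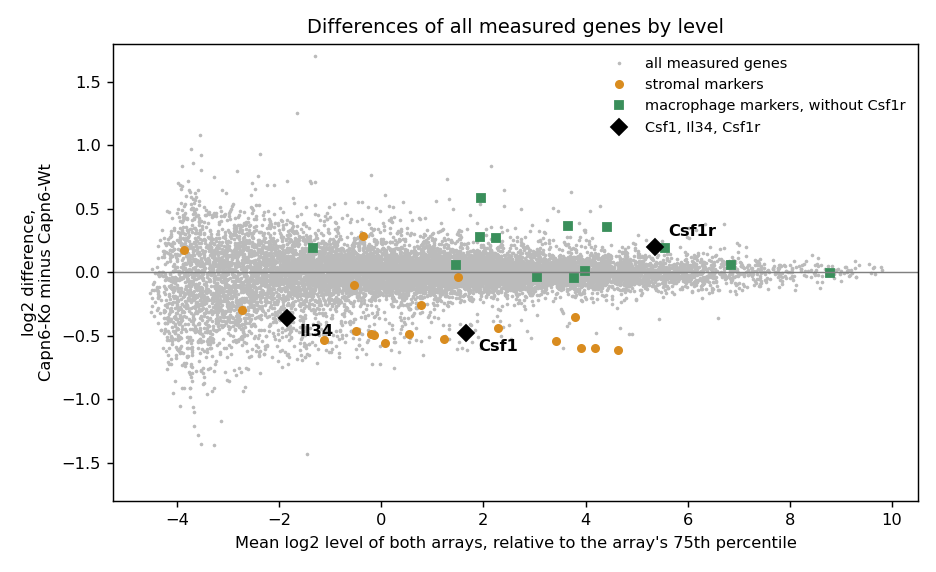
Log2 difference, Capn6-Ko minus Capn6-Wt, against the mean log2 level of both arrays for 12872 measured genes (grey), with Csf1, Il34 and Csf1r as black diamonds. Csf1 at -0.48 lies among the stromal markers (orange) and Csf1r at 0.20 among the macrophage markers (green).

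Stromal markers were lower in the Capn6-Ko pool by about as much as Csf1. Of 20 such markers 19 were measured and 17 were lower in Capn6-Ko, with a median of -0.48. In 13 the step was at least 20%, where 5.53% of all measured genes passed that size. The summed level of their measured probes, relative to the 75th percentile of each array, was 133 on the Capn6-Ko array and 189 on the Capn6-Wt array, and Lum was the only marker not well above background. Furthest were Tagln and Acta2, actin-binding and actin genes of smooth muscle and myofibroblasts, at -0.61 ± 0.079 and -0.60 ± 0.025, Col1a2, a chain of type I collagen, at -0.60 ± 0.078, and Col5a1, a chain of type V collagen, at -0.56 ± 0.11. Mgp (0.28 ± 0.11) and Thy1 (0.17 ± 0.33), named after their values were seen, were the 2 that were higher. The part of stromal cells in the Csf1 and Il34 values was not tested. In bulk RNA, fewer cells of a type and less RNA per cell cannot be told apart.

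Macrophage markers, in turn, were on average higher by about as much as Csf1r. Without Csf1r itself, 13 were measured and 10 were higher in Capn6-Ko, with a median of 0.19, where 47.8% of all measured genes were higher. At least 25% higher were 3, beside 2.64% of all measured genes. They were Cx3cr1, the fractalkine receptor (0.59 ± 0.063), Cd14, the endotoxin co-receptor (0.36 ± 0.076), and Aif1, an actin-binding protein of macrophages (0.36 ± 0.079), and with the arrays scaled to their medians they were 5. The summed level of all 14 measured markers was 1186 on the Capn6-Ko array and 1100 on the Capn6-Wt array, a log2 ratio of 0.11. This sum includes Csf1r and its bright probe A_55_P2025078, so it is not separate from the Csf1r value. The part of the macrophage share of the RNA in the Csf1r value was not tested.

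Keratinocyte markers, from the best known source of IL-34, were mostly not measured. Of 10 markers 6 were not well above background on both arrays, among them Krt5 and Krt1, and the 4 measured ones, Krt14, Krt10, Trp63 and Perp, lay between -0.20 and -0.0083. Their summed level was 9.46 on the Capn6-Ko array and 10.2 on the Capn6-Wt array. Most of that sum is 1 Trp63 probe, with a signal of 3243 in Capn6-Ko and 3549 in Capn6-Wt. A further Trp63 probe was not well above background, at 3.19 in Capn6-Ko and 3.71 in Capn6-Wt. Of 10 endothelial markers 5 were measured, all lower, where 47.8% of all measured genes were higher. Their median of -0.069 was within their median spot error of 0.11, and none was at least 20% lower. Their summed level was 36.0 on the Capn6-Ko array and 37.4 on the Capn6-Wt array, most of it from Vwf and Kdr. Cdh5, Tek, Tie1, Emcn and Cldn5 were not well above background on either array.

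Transcripts of the proteins that carry the receptor's signal were at nearly the same level in both pools. Of 37 measured members of 40, 23 were higher and 14 lower in Capn6-Ko, with a median of 0.028. In each direction 1 passed the fixed size, beside 2.64% of all measured genes that were higher and 5.53% that were lower by it. Dok2, an adaptor that restrains tyrosine kinase signals, was higher with a signal of 6646 in Capn6-Ko and 5350 in Capn6-Wt (0.33 ± 0.077). Sla2, an adaptor that promotes loss of the receptor, was at -0.35 ± 0.26 on a probe with a signal of 40.9 in Capn6-Ko and 52.8 in Capn6-Wt. A further Sla2 probe went the other way, with 28.6 in Capn6-Ko and, not well above background, 13.9 in Capn6-Wt. After normexp no gene of this list passed the size. Tyrobp (DAP12), the membrane adaptor that couples the receptor to Syk, was at 0.048 ± 0.082, and Ptpn6 (SHP-1), a phosphatase that dampens the signal, at 0.20 ± 0.080.

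As a list, transcription factors known to act at the Csf1r gene likewise centred close to 0. All 18 were measured, 11 higher and 7 lower in Capn6-Ko, with a median of 0.032. Spi1 (PU.1), the master regulator of Csf1r in myeloid cells, had a signal of 948 in Capn6-Ko and 922 in Capn6-Wt, a difference of 0.058 ± 0.085. Among them only Fos, a subunit of AP-1, was at least 25% higher and none was 20% lower, beside 2.64% and 5.53% of all measured genes. Fos had a mean of 2150 over 10 spots in Capn6-Ko and 1700 in Capn6-Wt (0.36 ± 0.026). Below 25% higher, Egr2 (0.22 ± 0.084), Egr1 (0.18 ± 0.12) and Mitf (0.17 ± 0.056) lay near the Csf1r value of 0.20. The lowest factor was Tfec at -0.14 ± 0.10. Egr2, Egr1, Mitf and Tfec were named after their values were seen.

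Genes known to be induced by M-CSF in macrophages split in both directions. Of 23 measured members of 25, 12 were higher and 11 lower in Capn6-Ko, with a median of 0.034. At least 20% lower were 6 of them, beside 5.53% of all measured genes, and 1, Fos, was at least 25% higher, beside 2.64%. Furthest down were Spry1, an inhibitor of receptor tyrosine kinase signals (-0.62 ± 0.20), the monocyte chemokine Ccl7 (-0.52 ± 0.083), the cyclin Ccnd2 (-0.51 ± 0.098) and the early response gene Ier3 (-0.44 ± 0.094). The other genes past that size were Ccl2, the chemokine that recruits monocytes, with 4023 in Capn6-Ko and 5469 in Capn6-Wt as means of 10 spots (-0.42 ± 0.024), and Vegfa, an angiogenic factor (-0.35 ± 0.075). Several of these genes are also expressed by stromal cells, whose markers had a median of -0.48, and the part of those cells in these values was not tested.

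**Figure D4:**
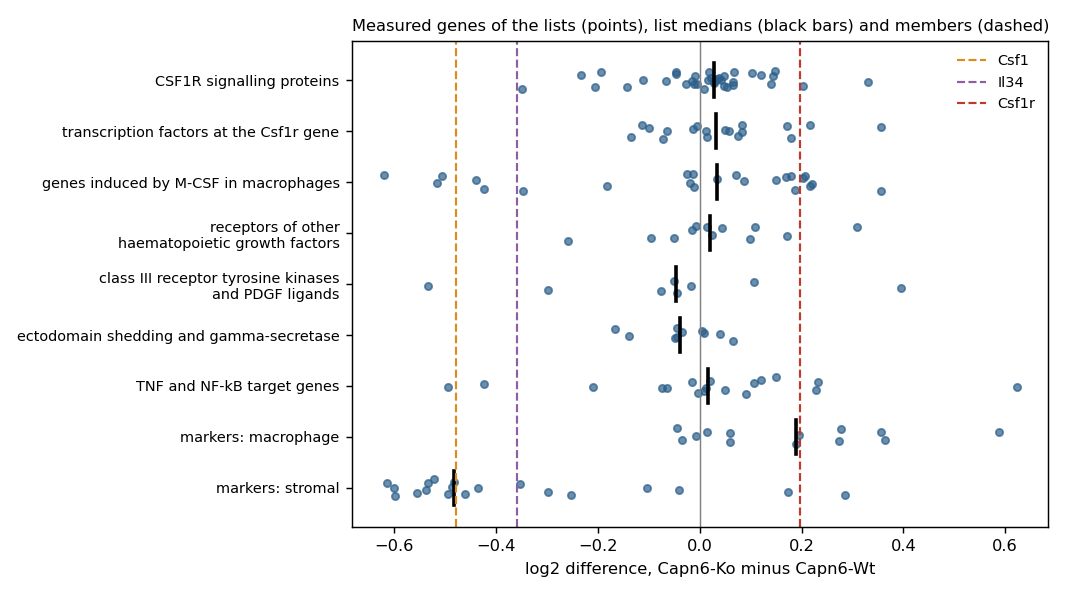
Log2 difference, Capn6-Ko minus Capn6-Wt, of every measured gene of 9 lists (blue points) with list medians as black bars and Csf1, Il34 and Csf1r as dashed lines. Genes of receptor signalling proteins centre on 0.028, while stromal markers centre on -0.48 beside Csf1. Csf1r is left out of the macrophage points, which centre on 0.19.

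Other growth factors of blood cells were mostly below detection. Of 10 such factors 3 were measured. Kitl, the stem cell factor made by stroma, was dim and stood at -0.077 ± 0.18, Flt3l at 0.11 ± 0.10, and Il11, a cytokine of the IL-6 family, at -0.63 ± 0.13 with a signal of 151 in Capn6-Ko and 237 in Capn6-Wt. Csf2, which encodes GM-CSF, had mean signals of 5.03 in Capn6-Ko and 4.94 in Capn6-Wt over 10 spots, none well above background, and Csf3, which encodes G-CSF, was also not well above background on either array.

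The receptors of those factors showed no difference of the fixed size. Of 12 measured receptors of 13, 7 were higher and 5 lower in Capn6-Ko, with a median of 0.020. The GM-CSF receptor chains Csf2ra and Csf2rb were at 0.11 ± 0.082 and -0.0065 ± 0.058, and the G-CSF receptor Csf3r at -0.096 ± 0.082. Kit, the stem cell factor receptor, was at -0.050 ± 0.17 and Flt3 was not well above background.

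Within the class III receptor tyrosine kinases, the structural family of Csf1r, the receptors for PDGF were lower. Pdgfrb, a receptor of pericytes and fibroblasts, had a signal of 143 in Capn6-Ko and 209 in Capn6-Wt (-0.53 ± 0.14). Its relative Pdgfra had means of 51.3 in Capn6-Ko and 63.6 in Capn6-Wt over 10 spots (-0.30 ± 0.072), short of 20% lower. Both also belong to the stromal markers. The ligand gene Pdgfb, which macrophages and platelets express, was higher on both of its probes, at 0.40 ± 0.095 over them, though after normexp no gene of this list was at least 25% higher. Over the 8 measured genes of this family and its ligands, 2 were higher and 6 lower, with a median of -0.047.

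Proteases that cut M-CSF and its receptor from the cell surface were listed with the gamma-secretase that cleaves the remaining receptor stub. The list also holds Rhbdf1, Rhbdf2 and Furin, so its counts are not for these enzymes alone. Of its 11 genes 10 were measured, 4 of them higher and 6 lower in Capn6-Ko. None passed the fixed size, and the median was -0.039. Adam17, the main shedding protease of both proteins, was at -0.045 ± 0.092 over its probes.

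Known targets of TNF-α and NF-kB centred near 0 and ranged from -0.50 to 0.62. The part of NF-kB in the Csf1 value was not tested. Of 18 measured targets of 22, 11 were higher and 7 lower in Capn6-Ko, with a median of 0.017. Of these 1 was at least 25% higher and 2 were at least 20% lower, beside 2.64% and 5.53% of all measured genes. Past the fixed size were Il1b, an inflammatory cytokine that was dim, with a mean of 37.1 in Capn6-Ko and 26.9 in Capn6-Wt over 10 spots (0.62 ± 0.11), and in the other direction the cyclooxygenase Ptgs2, with 135 in Capn6-Ko and 193 in Capn6-Wt over 10 spots (-0.50 ± 0.044), and Ccl2, given above. After normexp and without background correction no target was at least 25% higher.

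With 1 array per group the pattern of a gene is 1 number, so likeness was taken as the gap in log2 difference to 190 measured genes of the lists. Nearest to Csf1 were Ms4a1, a B cell marker that was dim (-0.48 ± 0.32), Fbn1, which encodes fibrillin-1 (-0.48 ± 0.11), and Dcn, the matrix proteoglycan decorin (-0.49 ± 0.097), with gaps of at most 0.0082. Nearest to Il34 were Fn1, which encodes fibronectin (-0.35 ± 0.076), Sla2 and Vegfa, with gaps of at most 0.012. Nearest to Csf1r were the scavenger receptor Marco (0.20 ± 0.14), the AP-1 subunit Junb (0.20 ± 0.13) and Ptpn6, with gaps of at most 0.0060. These gaps are far below the spot error of each gene.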

How the data were processed

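The deposited scanner files hold linear intensities. Per the file headers they come from Agilent Feature Extraction 10.10.1.1, whose processed signal is background-subtracted within each array and not scaled between arrays. The authors' deposited value table holds the same intensities times 1 constant per array, 2.42 for Capn6-Ko and 2.39 for Capn6-Wt (column medians 50.7 for Capn6-Ko and 53.0 for Capn6-Wt), uncentred and linear. These constants bring the 75th percentile to 901 on both arrays, so this table has the scaling used here. Both arrays lay on 1 slide and share 1 scan time, per the file headers.

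Control spots and outlier spots (136 on the Capn6-Ko array, 161 on the Capn6-Wt array) were left out. Log2 of the processed signal, with no pseudocount, was taken relative to the array's 75th percentile (372 for Capn6-Ko, 377 for Capn6-Wt). Spots of a probe were averaged, and a probe was measured where, on each array, more than 50% of its spots were well above background. Probes were named by RefSeq accession in a gene table of GRCm38.p6, used for names only since the array is annotated on mm9. A gene is the mean over its measured probes. Spot error was estimated in 8 bins of level from 263 probes with at least 5 spots per array and scaled to the spots of each gene. It covers spotting and scanning, not mice, culture or labelling, and the number of arrays limits the precision.

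The design allows no test between genotypes. The members and the 17 gene lists were chosen with earlier results of these data known. Named from each list were genes at least 25% higher or 20% lower, up to 4 per direction, a fixed set of partners of the ligands and receptor, and the 3 list genes nearest to each member. Of the members, Csf1 alone has an entry in the promoter table used. The files hold no mean pixel signal, so the alternatives planned on it, among them normexp (offset 50), used the median pixel signal. Scripts ran in Python 3.11.15 (numpy 2.4.6, pandas 2.3.3, matplotlib 3.10.9) and R 4.3.3 (limma 3.58.1) and were tested on simulated data.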

Additional observations from a re-analysis of the deposited data

How the results depend on the processing

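Over 9 alternatives, 3 scalings, 2 background treatments, 2 filters on dim probes, the brightest probe per gene and keeping outlier spots, Csf1 stayed lower in Capn6-Ko (-0.48 to -0.41) and Csf1r higher (0.19 to 0.26). Il34 stayed lower in the 8 that give it a value (-0.36 to -0.25). Several of these could not move the 3 genes: the authors' value table, 1 of the 3 scalings, repeats the 75th-percentile scaling, and both filters and keeping outlier spots left each value they gave identical, since all 7 probes were measured, none had an outlier spot, and those of Csf1 and Csf1r were above the median level. The ranges therefore rest on median scaling, quantile normalization, both background treatments and, for Csf1 and Csf1r, the brightest probe. With arrays scaled to their medians, Csf1 was at -0.41 and Csf1r at 0.26. Of 153 list medians 149 moved by less than the median spot error of their genes. The others were stromal (-0.39) and platelet markers (0.13) after normexp, platelet markers with the brightest probe (0.13) and other growth factors above the median level (0.11, from 1 gene). Dim probes limit Il34 and all counts of genes past a size. No paired analysis was possible because each group is 1 array.

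Counts over all genes, higher and lower, were 340 and 712 past 25% higher or 20% lower, 43 and 162 at 1.5-fold, and 3 and 9 at 2-fold. Median scaling gave 558 and 535, 69 and 92, and 5 and 7. Normexp gave 81 and 196, 9 and 9, and 1 and 0, and no background correction 98 and 242, 10 and 15, and 1 and 0. All probes gave 1667 and 2589, 837 and 1402, and 312 and 582. Probes above the median level gave 73 and 109, 7 and 15, and 0 and 0, from fewer genes.

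List counts past 25% higher or 20% lower that moved by over 1.5 times are given here, and the cause was not tested. The 1 lower receptor signalling protein became 0 under median scaling, quantile normalization, normexp, no background correction, all probes and probes above the median level, and the 1 higher became 0 under normexp and no background correction and 4 with all probes. Median scaling gave 1 higher receptor of other growth factors (also quantile normalization), 5 macrophage, 1 stromal and 4 platelet markers. Normexp gave 0 higher class III genes, and 0 higher TNF targets, neutrophil and platelet markers (so did no background correction), and 0 lower B cell markers. All probes gave 2 higher growth factors, 1 lower IL-34 binding protein, 4 lower TNF targets, 2 higher and 1 lower endothelial, 1 lower neutrophil, 1 higher and 2 lower B cell, 1 lower T cell and 2 lower keratinocyte markers. Probes above the median level gave 0 lower growth factors, class III genes and B cell markers, 0 higher and 1 lower TNF targets, 0 higher neutrophil markers and 1 higher platelet marker. Smaller moves were seen for M-CSF-induced genes, where the 6 lower became 5 under median scaling and with the brightest probe, 4 after normexp, without background correction and above the median level, and 7 with all probes, for stromal markers, where the 13 lower became 12 under median scaling and 11 above the median level, and for higher markers, 3 platelet ones under quantile normalization and 4 macrophage ones with the brightest probe.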

Other observations

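Platelet markers, which the lists held as cells a marrow culture can contain, were higher in Capn6-Ko in 7 of 9 measured genes, where 47.8% of all measured genes were higher, with a median of 0.26. That median was 0.13 after normexp and with the brightest probe per gene. At least 25% higher were 2, beside 2.64% of all measured genes, and 0 after normexp and without background correction. Gp6, the platelet collagen receptor, was at 0.47 ± 0.16 and Gp9, a subunit of the von Willebrand factor receptor, at 0.33 ± 0.11. The summed level of these markers was 46.6 on the Capn6-Ko array and 43.1 on the Capn6-Wt array. Neutrophil markers had 3 higher and 6 lower genes of 9 measured, with a median of -0.016, and Ltf, lactoferrin, at 0.33 ± 0.16 as the 1 that was at least 25% higher, beside 2.64% of all measured genes. No neutrophil marker passed that size after normexp, without background correction or among probes above the median level. B cell markers had 5 of 6 measured genes lower, with a median of -0.15. T and NK cell markers had 4 of 5 lower, with a median of -0.024. Over all measured genes 47.8% were higher. Both medians were within the median spot error of their genes, 0.22 for B cell markers and 0.10 for T and NK cell markers. Most of the measured B and T cell markers were dim.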
